A study of Homo sapiens with 24 samples.

Results

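The genes described here are 41 interferon-stimulated genes, chosen by name as a list that includes the markers IFIT1, ISG15 and MX1. All 41 were present among the 60448 gene symbols of the deposited tables, of which 19229 were matched to protein-coding genes. RNA-seq was performed on 24 libraries from 2 human prostate epithelial lines, BPH-1 (immortalized by SV40) and RWPE-1 (immortalized by HPV18). BPH-1 had 3 vector control libraries, 3 of the parental cells with C-Raf overexpression and 6 of metastasis-derived lines. RWPE-1 had 1 vector control, 4 C-Raf parental and 7 metastasis-derived libraries. Metastasis-derived lines came from C-Raf cells injected into the heart of NSG mice, which lack lymphocytes, and the resected tumors were cultured for about a week before RNA was taken. Their titles name bone for BPH-1 metastasis-derived libraries 1 to 5 and thymus for 6 (the treatment labels of libraries 5 and 6 name the opposite sites). For RWPE-1 they name lymph node for 1 and 2, spine for 3 and 4, and bone for 5 to 7. BPH-1 cells were grown in medium with serum (DMEM per the labels, RPMI per the study's methods) and RWPE-1 cells in keratinocyte serum-free medium with EGF, so line and medium cannot be told apart. All lines, controls included, were engineered with luciferase reporters. Neither separate cultures for libraries of one group nor the number of mice behind the lines is stated, so the p-values measure the spread between these libraries only.

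Protein-coding counts per library ranged from 20568435 to 42007542 in 21 libraries and from 111169 to 464699 in the remaining 3 (numbers 2, 4 and 5 of the BPH-1 metastasis-derived lines). These 3 low-depth libraries, whose RNA counts were 93.3 to 97.6% RN7SL1 (a noncoding RNA of the signal recognition particle), were kept out of the tests. RN7SL1 held 13.1%, 30.3% and 4.60% of the counts in BPH-1 metastasis-derived libraries 1, 3 and 6, and in every library of the other groups at most 0.00932%. All 7 epithelial markers (EPCAM, CDH1, KRT5, KRT8, KRT18, KRT14 and TP63) were above 1 CPM (counts per library scaled to 1e6) in all 21 deeper libraries. Of 8 leukocyte markers only CD68 passed 1 CPM in all 21, and the pan-leukocyte gene PTPRC stayed at or under 0.638 CPM. Levels below are CPM of protein-coding genes after TMM scaling, which corrects for a few genes that take a large share of a library.

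Interferons are secreted proteins that cells release on sensing viral or misplaced nucleic acid. Type I and type III interferons act through JAK1 and TYK2 to assemble the ISGF3 complex, which holds STAT2 and IRF9 and binds the interferon-stimulated response element (ISRE) in target promoters. Interferon gamma instead acts through the gamma-activated site (GAS), and the products of the targets sense foreign RNA, degrade it, block viral entry and budding, or feed back on the pathway.

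ISRE and GAS letters are shown for 6 genes: the markers IFIT1 and ISG15, IFI27, IFI44L and IFI6 of the other interferon-induced genes, and IRF1, a transcription factor gene with the GAS core and no ISRE core in this window. RefSeq promoters of build GRCh38.p14 were found for 33 of the 41 genes. Each line gives the 150 bases just before the gene's start, 5′ to 3′ on the gene's own strand, with matches to the ISRE core (GAAA, any 2 bases, GAAA) on either strand in capitals (in IRF1, which held none, the capitals mark the GAS core TTCNNNGAA).
IFIT1 (chr10:89392473-89392622, + strand): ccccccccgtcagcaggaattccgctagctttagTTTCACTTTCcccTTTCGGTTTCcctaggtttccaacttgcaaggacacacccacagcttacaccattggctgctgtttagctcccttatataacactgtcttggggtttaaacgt
ISG15 (chr1:1013347-1013496, + strand): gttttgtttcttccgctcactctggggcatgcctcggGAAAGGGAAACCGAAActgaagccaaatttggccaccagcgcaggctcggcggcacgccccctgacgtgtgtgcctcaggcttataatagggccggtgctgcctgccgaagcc
IFI27 (chr14:94110586-94110735, + strand): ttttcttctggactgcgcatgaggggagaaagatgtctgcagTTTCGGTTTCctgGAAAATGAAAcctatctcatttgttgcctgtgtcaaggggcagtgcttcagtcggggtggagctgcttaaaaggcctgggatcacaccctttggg
IFI6 (chr1:27672193-27672342, - strand): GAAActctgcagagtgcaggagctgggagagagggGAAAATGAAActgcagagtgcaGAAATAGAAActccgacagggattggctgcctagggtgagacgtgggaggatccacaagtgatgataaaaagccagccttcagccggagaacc
IFI44L (chr1:78620298-78620447, + strand): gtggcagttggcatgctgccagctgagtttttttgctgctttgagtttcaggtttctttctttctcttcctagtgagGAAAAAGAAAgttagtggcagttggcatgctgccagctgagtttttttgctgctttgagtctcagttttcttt
IRF1 (chr5:132490774-132490923, - strand): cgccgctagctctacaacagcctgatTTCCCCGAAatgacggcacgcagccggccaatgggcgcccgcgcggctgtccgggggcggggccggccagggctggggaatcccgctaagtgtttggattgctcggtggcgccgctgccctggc

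In windows of 300 bases (250 before and 50 after the start), 20 of the 33 promoters held the ISRE core, or 60.6%, beside 503 of 15842 protein-coding promoters, or 3.18%. The GAS core was found in 9 of 33 (27.3%), beside 6.97% of all promoters. The 2 ISRE matches of ISG15 overlap each other, and in IFI27 a GAS match at bases -101 to -93 overlaps both ISRE matches. The capitals that open the IFI6 line belong to a match that begins before the printed bases. The MX1 match lies after the start, at bases 11 to 20, and is not printed. These matches describe letters and say nothing of binding.

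**Figure D1:**
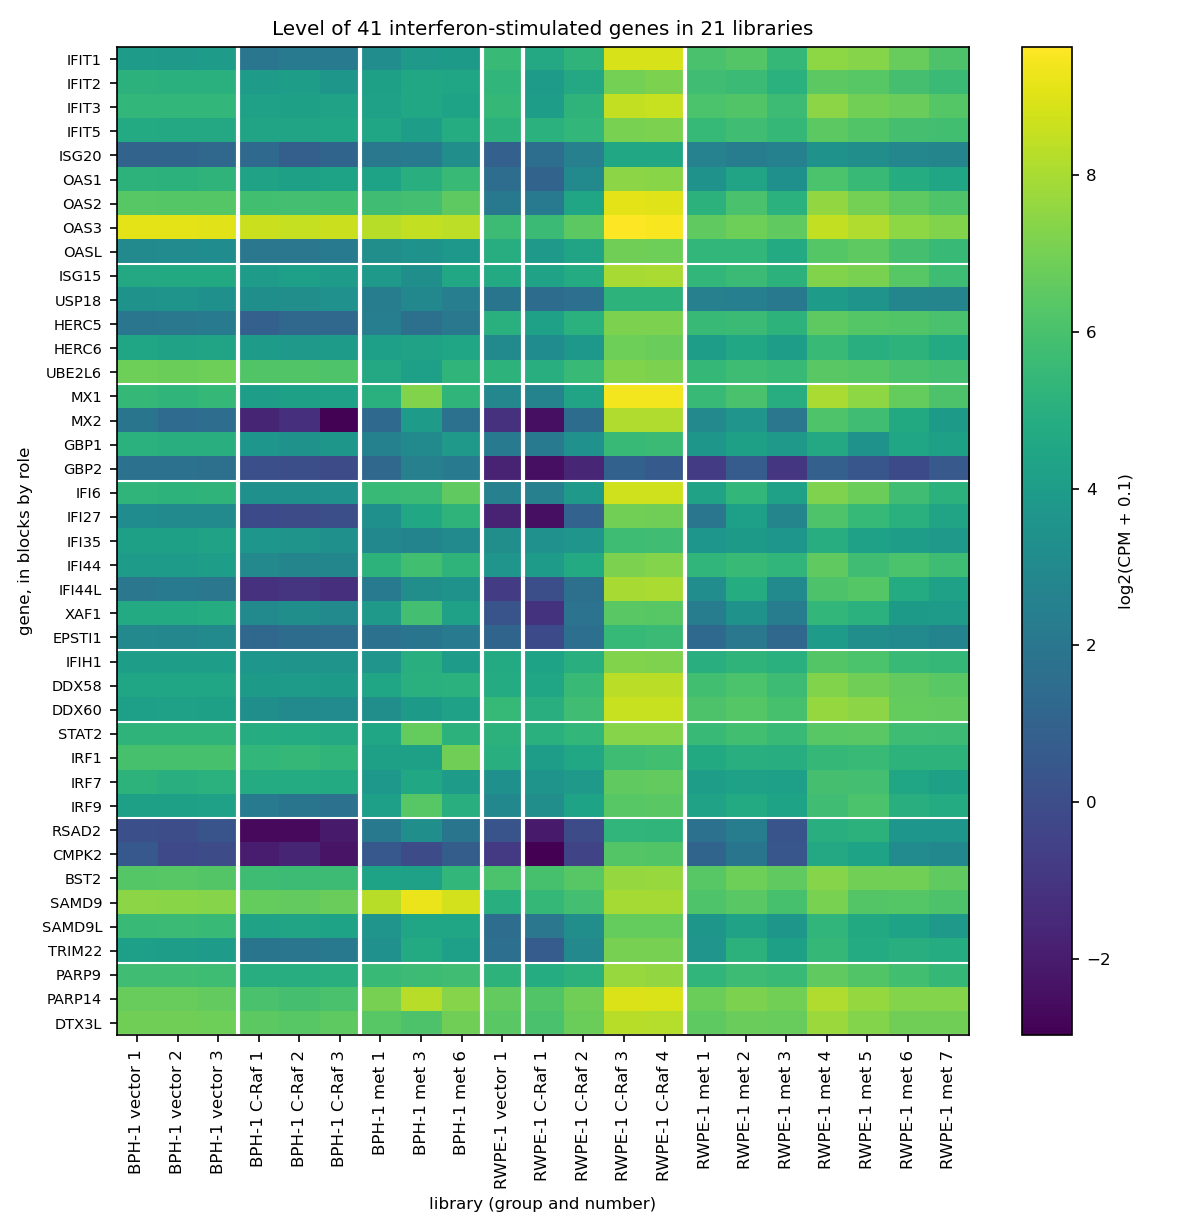
Level of each of the 41 genes (rows, in blocks by role) in the 21 deeper libraries (columns), as log2(CPM + 0.1) in color. RWPE-1 C-Raf parental libraries 3 and 4 form the brightest columns, and the BPH-1 C-Raf parental columns are darker than those of the BPH-1 vector control.

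Among the 21 deeper libraries, the list as a whole was lowest in one RWPE-1 C-Raf parental library and highest in another. The summed level of the 41 genes was 1927 to 1979 CPM in BPH-1 vector control, 1181 to 1220 CPM in BPH-1 C-Raf parental cells and 1427 to 2392 CPM in BPH-1 metastasis-derived libraries 1, 3 and 6. In RWPE-1 it was 906 CPM in the vector control, 710, 1158, 8612 and 8510 CPM in C-Raf parental libraries 1 to 4, and between 1335 and 4125 CPM (median 1922) in the 7 metastasis-derived lines. RWPE-1 C-Raf parental libraries 3 and 4 thus stood apart from libraries 1 and 2 of the same label, with each of the 41 genes higher in both of them. The lower of libraries 3 and 4 exceeded the higher of 1 and 2 by a median of 6.86 times over the genes, with extremes of 2.23 and 113 times. Libraries 3 and 4 lay closer to each other than any other pair of this group. Their median squared difference was 2.58 times what counting gives, against 12.4 to 37.9 times for the other pairs, and pairs of BPH-1 libraries within the vector control or the C-Raf parental group had 1.54 to 2.24 times. Libraries 3 and 4 entered the fits as separate libraries, though whether they came from separate cultures is not stated. The calls of each comparison that holds them are given with and without them. Leaving them out was not planned, and it lowers the mean of the RWPE-1 C-Raf parental group in all 41 genes. The fits without them thus describe dependence on these libraries and are no separate test of the list. Pairs of RWPE-1 metastasis-derived libraries had 4.25 to 42.6 times, and the pairs among BPH-1 metastasis-derived libraries 1, 3 and 6 had 37.3, 64.4 and 113 times, the widest of all groups.

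**Figure D2:**
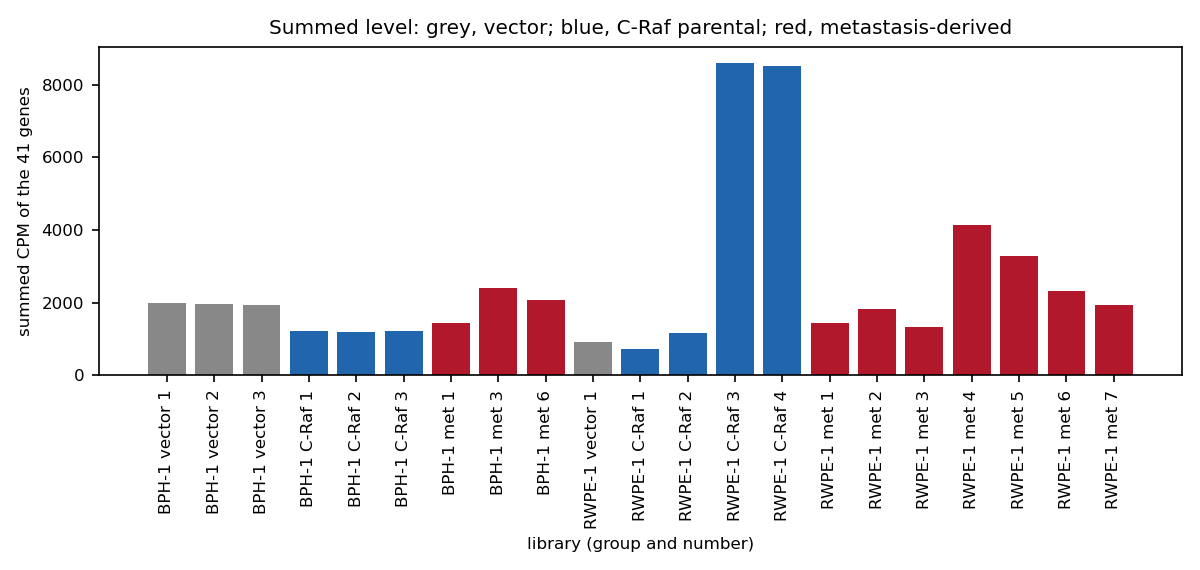
Summed CPM of the 41 genes in each of the 21 deeper libraries, as bars from 0. RWPE-1 C-Raf parental libraries 3 and 4 reach 8612 and 8510 CPM, above each of the other 19 bars.

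C-Raf overexpression in BPH-1 went with lower levels of nearly the whole list. Of 41 genes tested, 39 fell, 0 rose, and USP18 and ISG20 did not pass (edgeR quasi-likelihood test, adjusted p under 0.05, 3 against 3 libraries). Of all 13236 genes tested 59.8% passed, and 29.4% passed and were lower. The median log2 fold change was -0.99 over the list and 0.00 over all genes. In these bulk samples, fewer expressing cells and less RNA per cell cannot be told apart. For 39 genes each C-Raf parental library was below each vector control library. This was not counted over all genes, so it is not known to be particular to the list.

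Among signal transducers and sensors, all 4 transcription factors and all 3 RNA sensors fell. IRF9, the DNA-binding subunit of ISGF3, was at 18.0, 17.9 and 18.6 CPM in vector control and at 4.55, 3.64 and 3.39 CPM in C-Raf parental cells. The groups did not overlap, and IRF9 fell by 2.25 ± 0.08 on the log2 scale (SE; edgeR adjusted p = 3.23e-19). STAT2, its partner in ISGF3, fell by 0.50 ± 0.04, and IRF7, which drives interferon alpha genes, by 0.33 ± 0.05. The RNA helicases DDX58 (RIG-I) and IFIH1 (MDA5) fell by 0.56 ± 0.05 and 0.48 ± 0.06.

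Effectors that act on RNA fell in 8 of 9 cases. IFIT1, which binds RNA lacking a self cap, was at 15.6, 14.2 and 15.4 CPM in vector control and at 3.87, 4.42 and 4.63 CPM in C-Raf parental cells. That is a mean of 15.1 ± 0.73 against 4.30 ± 0.39 CPM (SD, n = 3 each), with no overlap and a log2 fold change of -1.83 ± 0.08 (SE). OAS3, an oligoadenylate synthetase, had the highest CPM of the list in all 6 of these libraries and fell by 0.53 ± 0.03, while ISG20, a 3′ exonuclease, had a change of -0.03 ± 0.16. The ISG15 conjugation group fell in 4 of 5 cases. ISG15, the ubiquitin-like modifier, was at 25.0, 25.9 and 26.0 CPM in vector control and at 15.3, 17.4 and 16.1 CPM in C-Raf parental cells, a fall of 0.68 ± 0.05 with no overlap. The deconjugase USP18 changed by -0.16 ± 0.07 (edgeR adjusted p = 0.0586).

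The antiviral GTPases fell in 4 of 4 cases, and MX2 had the largest fall of the list. MX2, which blocks nuclear entry of retroviruses, was at 3.65, 2.61 and 2.78 CPM in vector control and at 0.22, 0.31 and 0.03 CPM (7, 10 and 1 counts) in C-Raf parental cells. The change was -3.97 ± 0.29 on the log2 scale. MX1, its paralog against RNA viruses, was at 43.4, 39.2 and 42.0 CPM against 17.2, 18.3 and 18.7 CPM, and fell by 1.22 ± 0.05. Neither gene overlapped between the groups.

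Genes whose products act on entry, budding and nucleotides fell in 6 of 6 cases, PARP9, DTX3L and PARP14 in 3 of 3, and the other interferon-induced genes in 7 of 7. IFI44L, a little-studied antiviral gene, was at 3.93, 4.58 and 3.98 CPM in vector control and at 0.34, 0.37 and 0.31 CPM in C-Raf parental cells, and fell by 3.60 ± 0.19. IFI27, a mitochondrial protein, was at 8.72, 8.18 and 8.04 CPM against 0.81, 0.87 and 0.96 CPM and fell by 3.26 ± 0.13. TRIM22, an E3 ligase that restricts viral transcription, went from 17.6, 16.6 and 15.1 CPM to 3.74, 3.89 and 4.28 CPM and fell by 2.07 ± 0.08. All 3 genes had groups that did not overlap. These falls were seen at every setting tried, with 39 or 40 of 41 genes called lower. Beside them, the summed level of the 6 fibroblast markers (mostly COL1A1) went from 25.0 to 27.2 CPM to 11.3 to 11.5 CPM, that of the 8 leukocyte markers (mostly CD68) from 16.0 to 18.1 CPM to 27.1 to 30.9 CPM, and that of the 4 endothelial markers from 0.93 to 1.30 CPM to 1.47 to 1.54 CPM. DCN was at 0 in all 3 C-Raf parental libraries. Their part in the result was not tested.

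**Figure D3:**
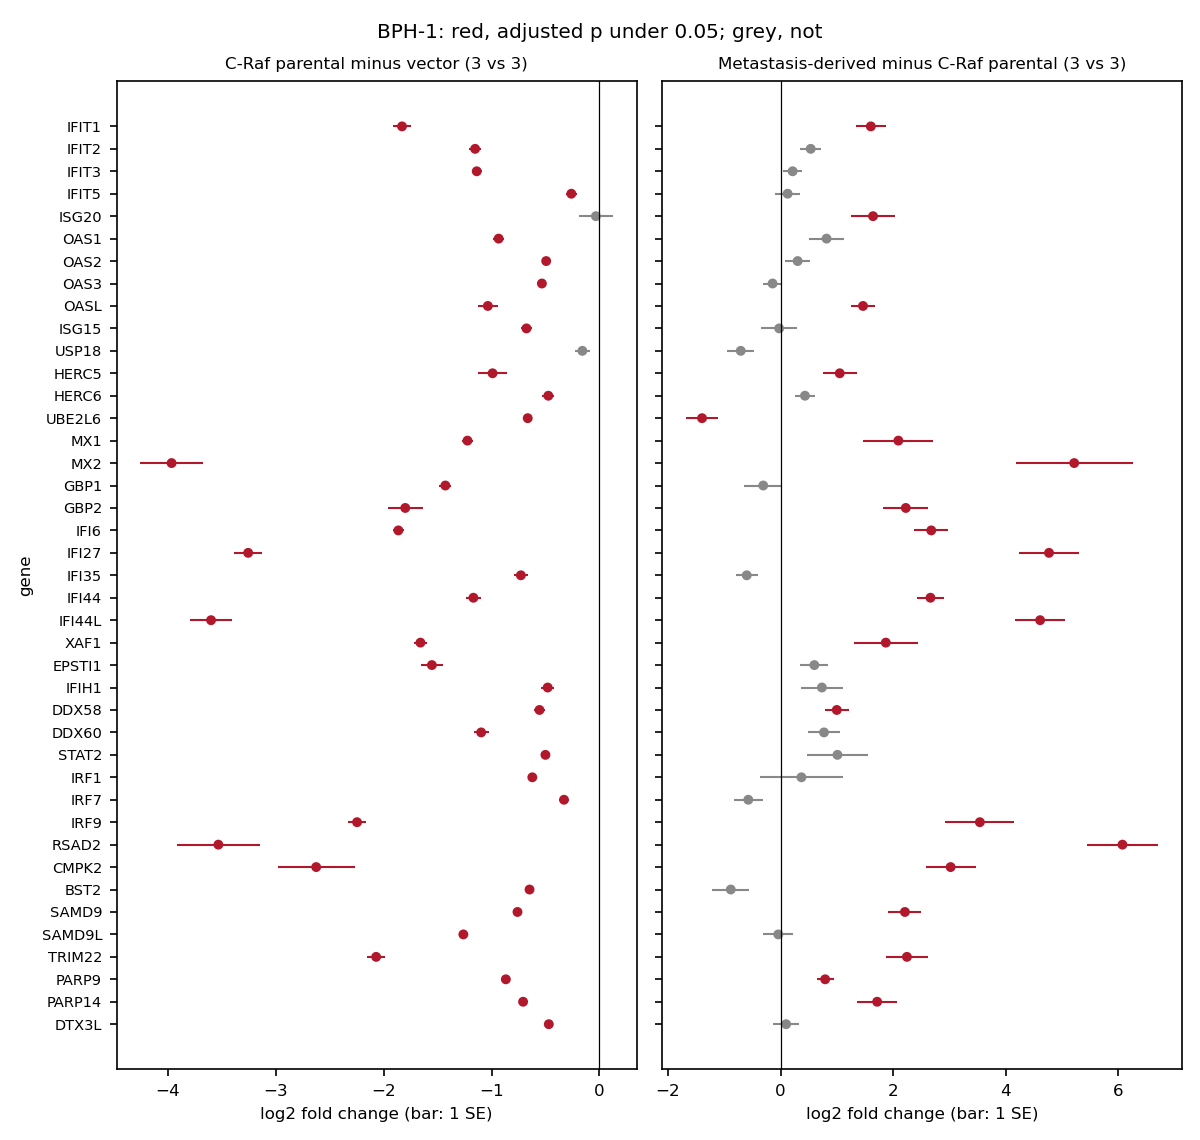
Log2 fold change of each gene in BPH-1 with 1 SE as a bar, for C-Raf parental minus vector control (left) and metastasis-derived minus C-Raf parental (right), 3 libraries against 3. Red points passed an adjusted p of 0.05; 39 lie left of 0 on the left side, and 20 right and 1 left of 0 on the right side.

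The BPH-1 metastasis-derived lines were compared with the same 3 C-Raf parental libraries, so that both comparisons share them. Of the 41 genes, 20 rose, 1 fell and 20 did not pass (edgeR, 3 against 3 libraries, the low-depth libraries left out). Of all 13459 genes tested 37.7% passed in either direction and 16.8% passed and were lower. The median log2 fold change was 0.82 over the list and 0.07 over all genes. The metastasis-derived libraries lay in a deposited table of their own, so stage and table cannot be told apart.

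Genes with low levels in C-Raf parental cells had the largest differences. RSAD2 (viperin), which makes a chain-terminating nucleotide, was at 0.06, 0.06 and 0.14 CPM (2, 2 and 4 counts) in C-Raf parental cells and at 4.28, 9.78 and 3.66 CPM in metastasis-derived libraries 1, 3 and 6. It rose by 6.07 ± 0.64 on the log2 scale (edgeR adjusted p = 0.00216), from the fewest counts of the list. MX2 was at 2.42, 15.2 and 3.37 CPM in these lines, and rose by 5.21 ± 1.04. IFI27 reached 10.2, 22.7 and 36.9 CPM and rose by 4.77 ± 0.53, and IFI44L reached 4.41, 9.38 and 10.7 CPM and rose by 4.61 ± 0.44. IRF9 was at 17.8, 81.9 and 29.9 CPM and rose by 3.54 ± 0.61. All 5 genes were above every C-Raf parental library in each of the 3 lines.

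The 3 list markers differed among themselves. IFIT1 was at 9.04, 13.9 and 15.0 CPM in the metastasis-derived lines and rose by 1.60 ± 0.26, near the vector control level of 14.2 to 15.6 CPM. MX1 was at 32.0, 151 and 38.9 CPM and rose by 2.09 ± 0.62. ISG15 was at 13.7, 9.70 and 22.8 CPM, a range that spans the C-Raf parental level of 15.3 to 17.4 CPM, with a log2 fold change of -0.02 ± 0.32. UBE2L6, the ISG15 conjugating enzyme, was the gene that fell, by 1.39 ± 0.29. Within the ISG15 group the ligase HERC5 rose by 1.05 ± 0.30, and HERC6 and USP18 did not pass.

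By role, 5 of 7 other interferon-induced genes, 4 of 6 genes of the entry, budding and nucleotide group, 3 of 4 GTPases, 3 of 9 RNA effectors, 2 of 3 of the PARP9 group, 1 of 3 sensors and 1 of 4 transcription factors rose. Library 6 was the highest of the 3 for 22 genes and library 3 for 18, and library 1 was the lowest for 31. In 24 genes all 3 lines were above all C-Raf parental libraries and in 6 genes (OAS3, IFI35, IRF7, USP18, BST2 and UBE2L6) below all of them. In 8 genes they were above all vector control libraries, and in 12 of the 41 genes they were below all vector control libraries. These counts without overlap were not made over all genes. SAMD9 was at 305, 602 and 429 CPM in the metastasis-derived lines against 162 to 171 CPM in vector control, and UBE2L6 at 24.3, 17.3 and 38.3 CPM against 112 to 115 CPM. Fibroblast markers summed to 48.4 to 68.8 CPM in these lines, nearly all COL1A1 with DCN at or under 0.0355 CPM, and endothelial markers to 2.38 to 39.0 CPM, nearly all VWF with KDR at or under 0.0355 CPM. Leukocyte markers summed to 10.7 to 25.0 CPM, mostly CD68 with PTPRC at or under 0.0355 CPM. Their part in the rise was not tested.

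The count of calls moved with the libraries and the scaling. With any 1 of the 3 C-Raf parental libraries left out, 12 genes rose and 0 fell, and with the 3 low-depth libraries added 7 rose and 0 fell, beside 9.52% of all genes higher. Scaled by library totals in place of TMM, 16 rose and 3 fell, with a median over all genes of -0.30. Shares of all genes are not given here for the fits with a library left out or scaled by totals. It is thus not known whether these changes in count are particular to the list. As a share of protein-coding counts the list took 0.155%, 0.147% and 0.209% in libraries 1, 3 and 6, beside 0.135 to 0.138% in C-Raf parental cells and 0.232 to 0.236% in vector control.

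In the low-depth libraries the list was counted 269, 186 and 14 times in all. Its share of protein-coding counts was 0.0579% (95% Wilson interval 0.0514 to 0.0652%), 0.140% (0.122 to 0.162%) and 0.0126% (0.00750 to 0.0211%) in libraries 2, 4 and 5. Of the 41 genes, 15, 22 and 32 had no count there. A count of 0 allows up to 3 counts, which is 12.4 CPM in library 2 and 60.6 CPM in library 5, and lower levels of the genes without a count were not detectable there. Intervals and floors cover counting error only.

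In RWPE-1 the 4 C-Raf parental libraries were compared with the single vector control library. No gene of the list passed (0 of 41), while all 41 had a positive log2 fold change with a median of 2.43, beside 0.00 over all genes. Of all 13889 genes tested 0.396% passed. At an unadjusted p under 0.05 there were 9 of 41 genes, beside 18.0% of all genes, and DESeq2 called 7 genes higher, beside 4.15% of all genes. The lone vector library was assumed to vary like the other groups. Without C-Raf parental library 1 edgeR called 4 genes higher (5.24% of all genes).

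These fold changes rested on libraries 3 and 4. MX1 was at 7.27 CPM in the vector control and at 6.15, 20.7, 688 and 684 CPM in C-Raf parental libraries 1 to 4. MX2 was at 0.34 CPM in the vector control, 0.08 CPM (3 counts) and 2.68 CPM in libraries 1 and 2, and 279 and 276 CPM in 3 and 4. IFI27 was at 0.20 CPM against 0.08, 1.87, 123 and 117 CPM. For each of these genes library 1 was below the vector control, library 2 above it, and 3 and 4 far above both. Markers of other cell types also differed along the 4 libraries. Leukocyte markers, nearly all CD68, summed to 34.5 CPM in the vector control and to 56.0, 71.9, 133 and 126 CPM, and fibroblast markers, nearly all COL1A1, to 7.35 CPM and to 8.71, 9.64, 19.4 and 20.5 CPM. PTPRC stayed at or under 0.105 CPM in the 4 libraries. Among the epithelial markers, KRT5, a basal keratin, was at 6401 CPM in the vector control and at 4036, 2271, 1034 and 1046 CPM. KRT14, KRT8, KRT18 and EPCAM were also below the vector control in all 4 libraries, while TP63 and CDH1 were not. TP63 was at 266.4 CPM against 196.2, 297.5, 246.2 and 237.1 CPM, and CDH1 at 232.9 CPM against 232.0, 239.8, 219.0 and 201.7 CPM. The part of all these markers in the result was not tested.

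IFI44L was at 0.49 CPM in the vector control and at 0.93, 3.16, 253 and 262 CPM. IFIT1 was at 47.3 CPM in the vector control and at 24.8, 36.7, 463 and 471 CPM, and ISG15 at 26.6 CPM against 19.6, 27.5, 250 and 262 CPM. In IFIT1, library 1 and library 2 were below the vector control, and in ISG15 only library 1 was. The fitted log2 fold changes were 8.66 ± 4.10 for MX2, 8.23 ± 3.90 for IFI27, 8.06 ± 3.57 for IFI44L, 5.60 ± 2.62 for MX1, 2.40 ± 1.53 for IFIT1 and 2.40 ± 1.46 for ISG15, none past the threshold.

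Without libraries 3 and 4 the median over the list was 0.11, with 26 genes positive and 15 negative and 0 called (edgeR, 0.123% of all genes passed), and 1 gene had an unadjusted p under 0.05, beside 8.34% of all genes. C-Raf parental library 1, from the same deposited table as the vector control, was below it in 30 of 41 genes, with a median log2 difference of -0.35. Library 2 was above it in 33 genes, with a median of 0.44, and libraries 3 and 4 in all 41, with medians of 3.29 and 3.31. With the table as a term, the median was 1.05 and 0 genes were called.

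**Figure D4:**
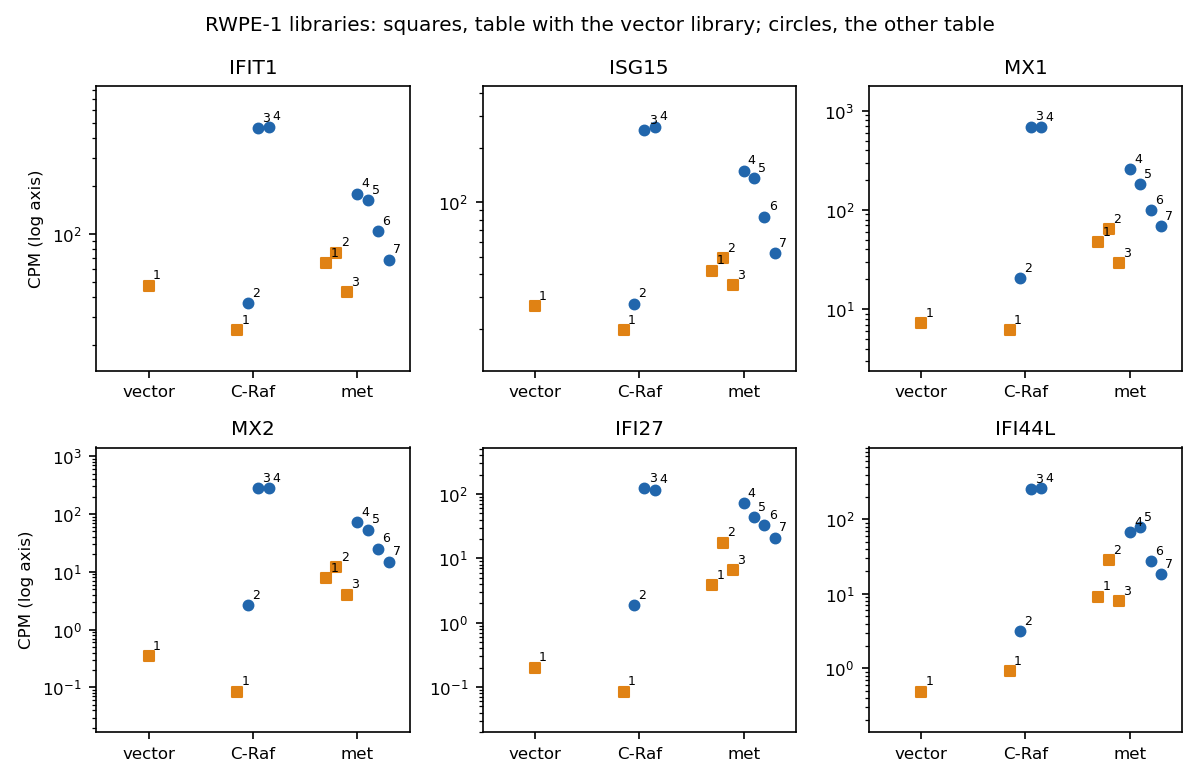
Level of 6 genes in the 12 RWPE-1 libraries by stage, in CPM on a log axis, with each point numbered by its library. Squares are libraries of the deposited table that holds the vector control and circles those of the other table; C-Raf parental libraries 3 and 4 lie above all 7 metastasis-derived lines in each of the 6 genes, and libraries 1 and 2 below all 7.

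For most of the list, the 7 RWPE-1 metastasis-derived lines lay between C-Raf parental libraries 1 and 2 and libraries 3 and 4. For 40 of 41 genes all 7 were below both libraries 3 and 4, for 34 genes all 7 were above both libraries 1 and 2, and for all 41 genes all 7 were above library 1. The libraries were set apart by levels of these same genes, and the counts were not made over all genes. Against the 4 C-Raf parental libraries together 0 of 41 genes passed (edgeR, 4 against 7 libraries, 0.0985% of 13193 genes passed). The median log2 fold change was -0.92, 40 genes were negative, and 0 had an unadjusted p under 0.05 by edgeR (7.87% of all genes) and 2 by DESeq2.

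MX2 ranged from 4.04 CPM to 71.2 CPM over the 7 lines with a median of 14.9 CPM, and its log2 fold change was -2.38 ± 1.20. CMPK2, a mitochondrial nucleotide kinase gene next to RSAD2, ranged from 1.21 to 25.1 CPM with a median of 7.34 CPM, against 0.03 (1 count), 0.66, 75.9 and 74.1 CPM in C-Raf parental libraries 1 to 4. Its change was -1.96 ± 1.17. IFI44L ranged from 7.98 to 78.0 CPM with a median of 27.7 CPM and a change of -1.94 ± 1.08. For all 3 genes the metastasis-derived lines overlapped neither pair of C-Raf parental libraries. The markers had ranges of 42.8 to 179 CPM for IFIT1 (median 76.1), 34.9 to 149 CPM for ISG15 (median 52.1) and 29.3 to 259 CPM for MX1 (median 68.2).

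The lines also differed by deposited table. Lines 4 to 7 were all above lines 1 to 3 in 27 of 41 genes, and line 4 was the highest of the 7 in 35 genes. The same counts over all genes were not made. MX1 was at 47.4, 63.8 and 29.3 CPM in lines 1 to 3 and at 259, 181, 98.9 and 68.2 CPM in lines 4 to 7. Lines 3 and 4, both from spine, lay in different tables and had the lowest and the highest MX1 level of the 7. Fibroblast markers summed to 55.9 CPM at most in these lines, in line 6, with a median of 13.3 CPM. In line 6 COL1A1 was at 27.9 CPM, COL3A1 at 20.4 CPM and DCN at 6.84 CPM, and DCN was at 4.95 CPM in line 2. RWPE-1 C-Raf parental libraries had at most 0.0786 CPM of COL3A1 and 0.550 CPM of DCN. The part of these markers in the result was not tested.

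Within the table of 3 C-Raf parental and 4 metastasis-derived libraries the median was -1.0 and 0 genes passed, beside 0.0152% of all genes. Within the table of 1 and 3 libraries it was 1.32, all 41 genes were positive and 5 were called higher, beside 0.669% of all genes. Without libraries 3 and 4 all 41 genes were positive with a median of 1.43. In that fit 0 passed adjustment (0.0149% of all genes did) while 38 had an unadjusted p under 0.05, beside 7.87% of all genes. Libraries 3 and 4 were above 1 and 2 in all 41 genes, so leaving them out favors a rise, and these counts are no test of the list. With the table as a term the median was -0.46, 37 genes were negative and 0 passed. The direction of the metastasis-derived comparison in RWPE-1 thus changed with which C-Raf parental libraries entered.

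When both lines were pooled with cell line as a term, 0 of 41 genes passed for C-Raf parental against vector control (edgeR, 0.814% of 15235 genes passed). At an unadjusted p under 0.05 there was 1 list gene by edgeR, beside 9.44% of all genes, and 1 by DESeq2. The median was 0.33, with log2 fold changes of 1.95 ± 2.02 for MX2, 1.43 ± 0.65 for ISG20 and 1.40 ± 1.76 for IFI44L. For the markers they were 0.01 ± 0.89 for IFIT1, 0.11 ± 0.69 for ISG15 and 1.33 ± 1.31 for MX1. Without RWPE-1 C-Raf libraries 3 and 4 the median was -0.84, with 40 of 41 genes negative and 0 called, and without the RWPE-1 vector library it was -0.195.

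In the pooled comparison of the metastasis-derived lines with parental C-Raf cells edgeR called 0 of 41 genes (2.51% of 15235 genes passed), with a median of -0.42. At an unadjusted p under 0.05 there were 3 list genes by edgeR, beside 27.3% of all genes, and 3 by DESeq2. The named genes had log2 fold changes of -1.16 ± 1.28 for MX2, -1.12 ± 0.65 for EPSTI1 and -1.09 ± 0.45 for USP18. For the markers they were -0.49 ± 0.58 for IFIT1, -0.56 ± 0.48 for ISG15 and -0.72 ± 0.85 for MX1. Without RWPE-1 C-Raf libraries 3 and 4, 26 of 41 genes rose and 0 fell, beside 10.9% of all genes higher, with a median of 1.19. Leaving out the parental libraries with the highest levels of the list favors such a rise, so this count is no test of the list. After ComBat-seq by cell line, DESeq2 called 5 genes higher and 2 lower, beside 8.42% of all genes in either direction.

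The metastasis effect was then compared between the lines through their interaction. In 12 of 41 genes the effect was higher in BPH-1 than in RWPE-1 and in 0 lower, beside 44.5% of 14271 genes that differed and 23.5% higher. The count of genes higher lay near the share of all genes and is not read as particular to the list. The median difference was 1.75 on the log2 scale. Without RWPE-1 C-Raf libraries 3 and 4 it was -0.60, with 2 genes higher and 8 lower (16.9% and 16.0% of all genes). Leaving out RWPE-1 C-Raf library 1 or 2 gave 26 or 19 calls, and leaving out BPH-1 C-Raf library 1, 2 or 3 gave 6, 7 or 6. Shares of all genes are not given for these fits, so the counts may have moved with those of all genes.

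**Figure D5:**
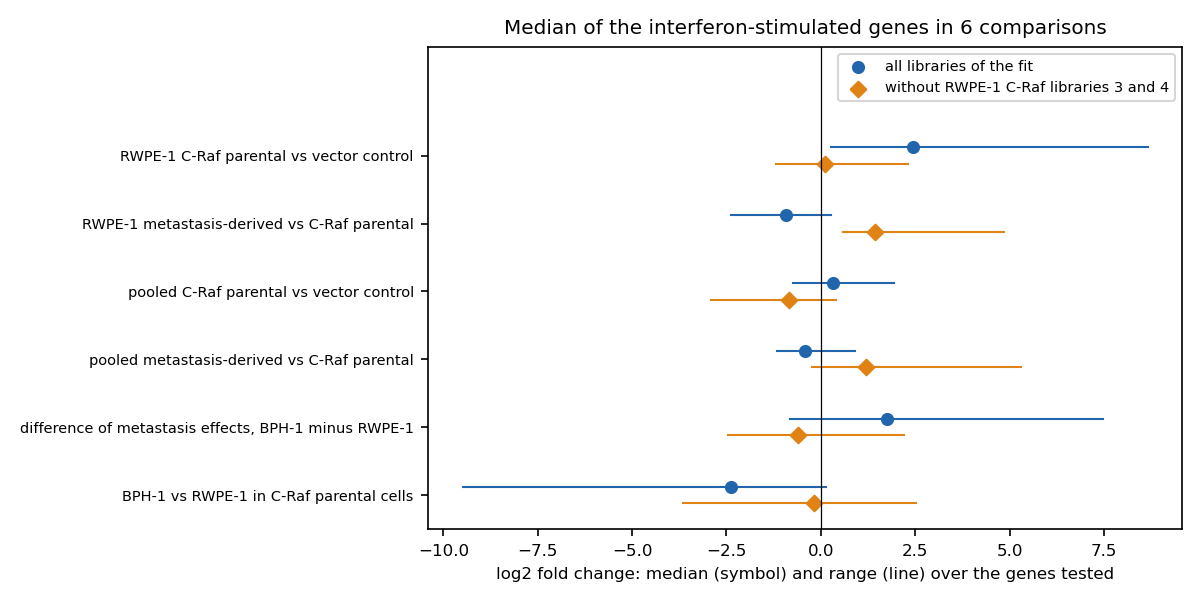
Median (symbol) and range (line) of the log2 fold change over the 41 genes (39 in the last comparison without the 2 libraries) in 6 comparisons, with all libraries of the fit (circles) and without RWPE-1 C-Raf parental libraries 3 and 4 (diamonds). In RWPE-1 the metastasis-derived median goes from -0.92 to 1.43.

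Between C-Raf parental cells of the 2 lines, 25 of 41 genes were lower in BPH-1 than in RWPE-1 and 0 were higher (edgeR, 3 against 4 libraries, of 13523 genes 38.0% passed lower and 36.0% higher). The median was -2.37 on the log2 scale. MX2, IFI44L, CMPK2, RSAD2 and IFI27 had the largest differences, between -9.49 ± 2.86 for MX2 and -6.11 ± 2.11 for IFI27. IFIT1 was lower in BPH-1 by a log2 difference of -5.86 ± 1.30, MX1 by -4.29 ± 1.60 and ISG15 by -3.12 ± 1.00.

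The counts also turned on RWPE-1 libraries 3 and 4. Without them 12 genes were higher in BPH-1 and 15 lower among the 39 tested, with a median of -0.18, beside 38.9% and 39.6% of all genes. IFIT1 then had a difference of -2.84 ± 0.185, which passed, and MX1 one of 0.42 ± 0.44, which did not pass. Without RWPE-1 library 3 or 4 alone 16 or 15 genes were lower, and without any 1 BPH-1 library 10 were. For these fits the shares of all genes are not given, so a change in count may not be particular to the list. OAS3 was at 372 to 393 CPM in BPH-1 C-Raf parental cells and at 48.9, 88.9, 790 and 729 CPM in the 4 RWPE-1 libraries.

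The rest of the pathway was read from lists of ligands, receptors and kinases, sensors, inhibitors and further interferon-induced genes. The 8 interferon genes summed to at most 3.16 CPM in RWPE-1 C-Raf parental libraries, 1.37 to 1.77 CPM in BPH-1 C-Raf parental cells and 1.81 to 20.1 CPM in BPH-1 metastasis-derived libraries 1, 3 and 6, where library 6 had the highest sum of the deeper libraries. Most of it was IFNE, an epithelial interferon, at 7.08, 1.03 and 16.5 CPM, with IFNK, a keratinocyte interferon, at 0.91, 0.32 and 2.80 CPM. IFNE had a log2 fold change of 2.56 ± 0.86 against C-Raf parental cells, which did not pass by edgeR (adjusted p = 0.0576) and passed by DESeq2. IFNB1, the interferon beta gene, was at 0.37 and 0.40 CPM in RWPE-1 C-Raf libraries 3 and 4 and at most at 0.17 CPM in the other RWPE-1 libraries. IFNL1, an interferon lambda gene, was at 0.84 and 0.48 CPM in RWPE-1 C-Raf libraries 3 and 4, beside 0.06 CPM in the vector control and 0 and 0.15 CPM in libraries 1 and 2. IFNK was above both in libraries 3 and 4, at 1.15 and 1.83 CPM. It was at 0.06 CPM in the vector control and at 0 and 0.23 CPM in libraries 1 and 2. Among RWPE-1 metastasis-derived lines IFNK reached 1.73 CPM in line 4, and IFNL1 reached 0.40 CPM in line 5. IFNG was at 0 in all 24 libraries.

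CXCL10, a T cell chemokine, was at 12.3 and 14.3 CPM in RWPE-1 C-Raf libraries 3 and 4 and at 0.06, 0.03 and 0.08 CPM in the vector control and libraries 1 and 2. IFNB1, IFNL1, IFNE, IFNK and CXCL10 were chosen for print after their values were seen. Of the pathway genes tested in RWPE-1, edgeR called 0 of 52 for C-Raf parental against vector control. There 15 had an unadjusted p under 0.05, beside 18.0% of all genes, and DESeq2 called 3 higher, beside 4.15%. For metastasis-derived lines edgeR called 0 of 50, with 4 at an unadjusted p under 0.05, beside 7.87% of all genes. DESeq2 called 0 in that comparison, with 5 unadjusted. Without libraries 3 and 4 edgeR called 0 of 51 (6 unadjusted) and 0 of 50 (19 unadjusted).

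In BPH-1 C-Raf parental against vector control, the further interferon-induced genes mostly fell too. Of 21 listed, 17 were tested, 14 fell and 1 rose (ISG20L2), with a median of -0.30. The 14 were IFITM1, IFITM2, IFITM3, TRIM21, LGALS3BP, PLSCR1, SP100, PML, NMI, TDRD7, RTP4, IFI30, APOL1 and APOL6. TDRD7, an antiviral scaffold, fell by 1.37 ± 0.08 and IFITM1, which blocks viral fusion, by 0.81 ± 0.05.

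Receptors and kinases moved both ways. IFNGR2 rose by 0.73 ± 0.04, IFNGR1 by 0.42 ± 0.03 and IFNAR1 by 0.17 ± 0.03, while JAK2 fell by 0.44 ± 0.07, and IL10RB, TYK2 and JAK1 by 0.14 to 0.19. Of 15 sensors and adaptors, 4 rose (TMEM173, IFI16, TICAM1 and IKBKE) and 7 fell, TLR3, DHX58, MAVS, ZBP1, EIF2AK2 and ADAR among them. TMEM173, which encodes STING, rose by 0.90 ± 0.04 and TLR3, the endosomal RNA receptor, fell by 1.36 ± 0.12. Of 5 inhibitors, SOCS1, SOCS3 and PTPN2 rose and PIAS1 fell.

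In BPH-1 metastasis-derived lines 10 of the 47 pathway genes tested passed, beside 37.7% of all genes. In C-Raf parental against vector control it was 38 of 48, beside 59.8%. In the metastasis-derived lines IFNLR1 rose by 0.69 ± 0.19, SP100 by 0.95 ± 0.24, TDRD7 by 1.10 ± 0.27 and PIAS1 by 0.56 ± 0.14. MAVS, the mitochondrial adaptor of RIG-I, fell by 0.99 ± 0.18 and IRF3, its downstream factor, by 1.00 ± 0.22, as did PTPN6, TRIM25, LGALS3BP and IFI30. In the pooled fits TMEM173 alone passed by edgeR, higher in C-Raf parental cells than in vector control. Without RWPE-1 C-Raf libraries 3 and 4 it did not pass, and 8 of 53 pathway genes were higher in the pooled metastasis-derived lines, beside 10.9% of all genes. In the interaction IFNK, IFNLR1, PIAS1, SP100 and TDRD7 were higher and MAVS, IRF3, PTPN6, LGALS3BP and IFI30 lower in BPH-1, of 52 tested. Of all genes 44.5% differed and 23.5% were higher. Without libraries 3 and 4, 1 was higher (PIAS1) and 10 lower, beside 16.9% and 16.0% of all genes. Between the C-Raf parental cells of the lines 10 pathway genes were higher in BPH-1 (IFNE, IFNGR1, TMEM173, AIM2, TBK1, IRF3, SOCS1, SOCS3, IFI30 and APOL1) and 20 lower, of 48 tested, beside 36.0% and 38.0% of all genes. Without libraries 3 and 4, 20 were higher and 17 lower, beside 38.9% and 39.6%.

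Some of these genes share sequence or position. In GENCODE v29, 8 of the 41 overlap a protein-coding gene on the opposite strand: IFIT1, IFIT2 and IFIT3 lie opposite LIPA, TRIM22 opposite TRIM5, RSAD2 opposite CMPK2 over 830 bases, and PARP9 opposite DTX3L over 340 bases. Whether counting used the strand is not given in the sources used here, so reads of these pairs may not be told apart. Paralogs such as MX1 and MX2 or IFI44 and IFI44L can share reads, which the estimate behind an expected count divides between them.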

How the data were processed

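Per the labels, polyadenylated RNA libraries were made with an Illumina mRNA kit, and the submitters' processing notes name cutadapt, FastQC, STAR, RSEM and hg38. The study's methods name the TOIL pipeline, and versions and annotation are not given in the sources used here. The authors deposited RSEM expected counts per gene symbol in 4 tables, not normalized. Counts were rounded to whole numbers, symbols were matched to GENCODE v29 (36628 of 60448, and 894 more through older symbols) and protein-coding genes were kept. Tests used edgeR 4.0.16 (TMM, filterByExpr, quasi-likelihood, Benjamini-Hochberg over all genes tested, threshold 0.05) in R 4.3.3, with DESeq2 1.42.0 and ComBat-seq (sva 3.50.0) as alternatives. Single-library log2 differences used a prior count of 2. The fit was tested on simulated data: for BPH-1 metastasis-derived against C-Raf parental cells (13459 genes) 52% of 4-fold and 2% of 2-fold changes were recovered, and for BPH-1 C-Raf against vector control (13236 genes) 100% of both. For RWPE-1 metastasis-derived against C-Raf parental cells (13193 genes) it was 81% of 2-fold and 95% of 4-fold changes. The changed genes were picked at random from all genes, and the simulation held no split among libraries of a group. These shares therefore do not give the recovery for the listed genes, whose levels lay far apart among the RWPE-1 C-Raf parental libraries.

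Genes printed with values in every library were IFIT1, ISG15 and MX1 and, per comparison, up to 5 genes of the list with the largest absolute log2 fold change among those past the threshold and at a mean of at least 1 CPM, or the 3 largest of at least 1 CPM where fewer than 3 passed. The 41 genes and the other lists were chosen with earlier results of these data known, and some of their genes are counted but not reported by name here. Depth ranged from 9035970 to 52851374 counts per library.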

Additional observations from a re-analysis of the deposited data

Results flagged for a closer look

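The effect of metastasis derivation differed between the cell lines by the interaction test in 12 of the 41 genes, all higher in BPH-1, beside 23.5% of all genes that were higher and 44.5% that differed. The count lay near the share of all genes, so it is not read as particular to the list. Without RWPE-1 C-Raf parental libraries 3 and 4, 2 were higher and 8 lower. The log2 differences, BPH-1 minus RWPE-1, were 7.47 for MX2, 6.51 for RSAD2, 6.50 for IFI44L, 5.82 for IFI27, 4.46 for IFI6 and 2.87 for IFIT1. Without these libraries the same differences were 0.82, 1.16, 0.49, -0.13, -0.02 and -0.17. Among 28 gene and group pairs checked for a single library far from the others of its group, 0 were found. Such a check cannot flag libraries that lie together, as RWPE-1 C-Raf parental libraries 3 and 4 did. It therefore does not show that the groups were even.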

How the results depend on the processing

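Calls in BPH-1 C-Raf parental against vector control kept their direction in 39 or 40 genes under all alternatives, the replicate block (39 genes) included. Same-numbered libraries had correlations of -0.0333, -0.0875 and -0.0639, so the numbers were not read as pairs. With 1 library left out, the count of called genes ranged from 12 to 26 for BPH-1 metastasis-derived lines, 0 to 4 for RWPE-1 C-Raf parental against vector control, 6 to 26 for the difference of metastasis effects and 10 to 33 between the lines. Shares of all genes are not given for most of these fits, so the ranges are not known to be particular to the list. Counts were 7 with the low-depth libraries (BPH-1 metastasis-derived), 7 by DESeq2 (RWPE-1 C-Raf against vector control), 5 within the table of 1 C-Raf parental and 3 metastasis-derived RWPE-1 libraries, 7 after ComBat-seq (pooled metastasis-derived) and, without RWPE-1 C-Raf libraries 3 and 4, 26 (pooled metastasis-derived) and 10 (difference). Without libraries 3 and 4 the following log2 fold changes had the opposite sign. In RWPE-1 C-Raf against vector control they were -0.62 for IFIT1 and -0.17 for ISG15. In RWPE-1 metastasis-derived lines they were 4.27 for MX2, 4.79 for CMPK2, 4.055 for IFI44L, 1.72 for IFIT1, 1.74 for ISG15 and 3.01 for MX1, and within the table of 1 and 3 libraries 6.51, 6.235, 4.05, 1.32, 1.11 and 2.94. For pooled C-Raf against vector control they were -2.90 for MX2, -2.74 for IFI44L, -1.57 for IFIT1, -0.73 for ISG15 and -0.995 for MX1, and after ComBat-seq -1.98, -2.11, -0.94, -0.20 and -0.0842. IFIT1 there was also -0.17 by library totals, -0.00129 without a filter and -0.0856 with all genes of the tables. For pooled metastasis-derived lines they were 4.65 for MX2, 1.345 for EPSTI1, 0.41 for USP18, 1.695 for IFIT1, 0.95 for ISG15 and 2.66 for MX1, and after ComBat-seq 2.735 for MX2, 0.43 for IFIT1 and 0.85 for MX1. The difference was -0.13 for IFI27, -0.0161 for IFI6, -0.17 for IFIT1, -1.81 for ISG15 and -0.998 for MX1, and MX1 between the lines was 0.42. With 1 library left out, ISG15 ranged from -0.40 to 0.20 in BPH-1 metastasis-derived lines and from -0.41 to 0.25 in pooled C-Raf against vector control, and IFIT1 from -0.555 to 0.38 there and from -0.72 to 0.00467 in pooled metastasis-derived lines. The cause of these changes was not tested. Depth limits the 3 low-depth libraries, and the single RWPE-1 vector library limits every comparison with it.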
